A study of Mus musculus with 2 samples.

Results

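The 10 genes described here belong to the NF-kappaB system, the 5 subunits of the transcription factor (Nfkb1, Nfkb2, Rel, Rela and Relb) and 5 genes that restrain or tune it (Nfkbia, Nfkbib, Nfkbie, Nfkbiz and Tnfaip3). They were chosen by name as the REL family and the feedback inhibitors it induces, and all 10 of the 10 symbols had a row among the 43346 features of the deposited gene table. The libraries came from X63/0 (X63-Ag8.653), a mouse plasmacytoma line, which is a single tumour line of the antibody-secreting lineage grown with 10% fetal bovine serum, penicillin, streptomycin and 2-mercaptoethanol. One library was made from cells with no treatment and 1 from cells harvested 3 h after cycloleucine was added at 30 mM. Cycloleucine is an amino acid analogue that blocks methionine adenosyltransferase, the enzyme that makes S-adenosylmethionine. With 1 library per group there is no replicate spread, so no test between the conditions was made, and every interval given is a 95% counting interval of these 2 libraries.

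NF-kappaB dimers are held in the cytoplasm by IkappaB proteins, and stimulation of receptors activates IkappaB kinase, which marks those proteins for destruction and frees the dimers to enter the nucleus. Several of the genes switched on there encode the IkappaB proteins and subunits themselves, a negative feedback that ends the response within hours. In B cells and plasma cells the pathway is fed by receptors of the tumour necrosis factor family and supports survival, and it is often mutated in myeloma.

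Promoter sequences are shown for the 7 genes with a RefSeq promoter window (GRCm38.p6, the mm10 assembly). Each line gives the 130 bases before the most upstream RefSeq start, 5′ to 3′ on the gene's strand, with every match to the kappaB consensus, the DNA decamer that NF-kappaB dimers bind, on either strand in capitals.
Nfkb2, chr19:46304607-46304736, plus strand: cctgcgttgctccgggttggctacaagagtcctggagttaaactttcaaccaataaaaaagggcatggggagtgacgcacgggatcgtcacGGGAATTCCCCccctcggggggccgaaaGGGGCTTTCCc
Rel, chr11:23770970-23771099, minus strand: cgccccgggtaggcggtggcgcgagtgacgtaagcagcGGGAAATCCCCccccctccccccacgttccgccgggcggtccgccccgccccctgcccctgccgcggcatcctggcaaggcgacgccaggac
Nfkbia, chr12:55492648-55492777, minus strand: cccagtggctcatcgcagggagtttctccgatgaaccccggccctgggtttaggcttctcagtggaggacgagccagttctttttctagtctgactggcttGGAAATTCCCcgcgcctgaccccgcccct
Nfkbie, chr17:45555570-45555699, plus strand: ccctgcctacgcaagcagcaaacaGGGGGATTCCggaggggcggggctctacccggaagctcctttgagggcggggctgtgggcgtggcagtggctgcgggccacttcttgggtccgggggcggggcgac
Tnfaip3, chr10:19015411-19015540, minus strand: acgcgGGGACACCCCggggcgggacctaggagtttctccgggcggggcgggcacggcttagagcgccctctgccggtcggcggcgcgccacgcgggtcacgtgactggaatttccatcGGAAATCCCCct
Rela, chr19:5637411-5637540, plus strand: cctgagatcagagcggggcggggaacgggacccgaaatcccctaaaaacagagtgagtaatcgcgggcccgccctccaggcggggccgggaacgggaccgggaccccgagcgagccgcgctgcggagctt
Nfkbib, chr7:28766645-28766774, minus strand: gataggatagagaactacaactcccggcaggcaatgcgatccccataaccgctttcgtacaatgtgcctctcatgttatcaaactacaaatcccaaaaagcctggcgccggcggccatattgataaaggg

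Of the 7 genes, 5 (Nfkb2, Rel, Nfkbia, Nfkbie and Tnfaip3) had at least 1 match in the full window of 250 bases before to 50 after a start, and Rela and Nfkbib had none. Among all 27025 genes with such a window, 5.14% had a match, and of the 32851 windows 4.51% had one. Matches can overlap, as in Nfkb2, where GGGAATTCCC at -39 to -30 reads the same on both strands and shares bases with GGGGAATTCC on the other strand. A later start of Nfkb2 is followed, at bases 11 to 20, by GGGACTTTCC, the decamer first found in the immunoglobulin kappa enhancer, and 0.174% of all genes have that exact decamer on either strand. The decamer was picked for counting because it stood in this window, so the share lends no weight to the match. A match is a description of the letters in the window, and its absence from Rela and Nfkbib says nothing about the factor. The stretches of Nfkbib and Tnfaip3 lie inside the coordinates given below for those genes, and that of Rela lies partly inside. Their RefSeq starts thus differ from the start of the gene model on which the reads were counted. Binding was not measured here.

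Reads assigned to genes numbered 27127865 without and 31951946 with cycloleucine, of which 48.4% and 49.4% were exon reads. The labelled cell type was borne out by its markers, with 9 plasma cell genes summing to an RPKM of 871 and 881, RPKM being reads per kilobase of exon scaled to the gene reads of the library. Of 8 B cell genes 4 passed the filter, and the 8 summed to 59.9 and 62.0. Markers of T and natural killer cells (8 in the table, 0 of them above the filter used here and 3 at 0 in both libraries) summed to 0.419 and 0.554 RPKM, of myeloid cells (6, with 1 above the filter and 1 at 0) to 1.48 and 1.43, and of fibroblasts (6, with 0 above the filter) to 0.295 and 0.297. The part of other cells in the results was not tested. In RNA of a whole culture, fewer cells of a type and less RNA per cell cannot be told apart.

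All 10 genes had reads in both libraries, and none differed by 1.5-fold or more between them. This size rule was applied to a log2 fold change of RPKM with 0.1 added to both values, which understates the change of low genes. In the whole table, 9613 features passed a filter of RPKM 1 or more in either library and 50 or more reads summed, and 5.49% of them were past 1.5-fold, 3.03% higher and 2.47% lower. Of the 10 genes, 3 had a higher RPKM and 7 a lower one with cycloleucine, and the 10 log2 fold changes had a median of -0.15. Over the 9613 features the median was 0.0035, with 4890 above and 4723 below 0. Tnfaip3 lay under the filter in both libraries, Nfkbie passed it only through the untreated library and Nfkbiz only through the cycloleucine library, so no count over the genes that passed is read as a result.

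**Figure D1:**
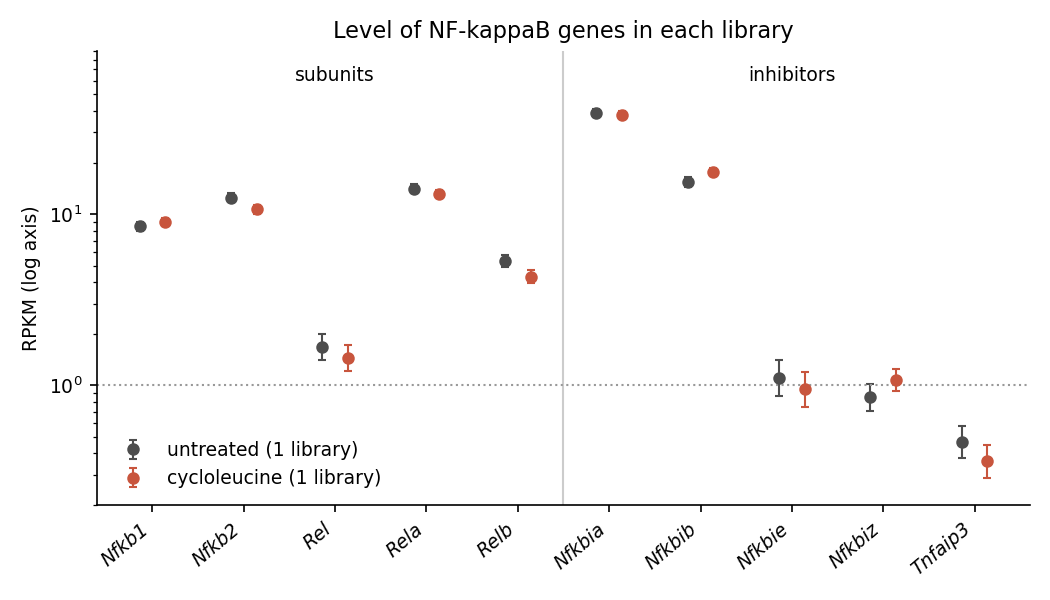
RPKM (log axis) of the 10 genes in the untreated (grey) and the cycloleucine (red) library, with exact Poisson counting intervals as bars. Nfkbia was highest, at 39.0 and 38.1, and Tnfaip3 lowest, at 0.469 and 0.359, with the filter's 1 RPKM as a dotted line.

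The order of the levels, per exon length, was nearly the same in both libraries. In the untreated library Nfkbia stood first at an RPKM of 39.0, followed by Nfkbib at 15.4, Rela at 14.1, Nfkb2 at 12.5, Nfkb1 at 8.48, Relb at 5.33, Rel at 1.69, Nfkbie at 1.11, Nfkbiz at 0.852 and Tnfaip3 at 0.469. Nfkbib and Rela, and Nfkbie and Nfkbiz, were neighbours whose counting intervals overlapped, while each other neighbouring pair stood apart. In the cycloleucine library Nfkbiz (1.08) and Nfkbie (0.956) changed places, again with overlapping intervals, and Nfkbiz also overlapped with Rel (1.45). The 5 subunits summed to an RPKM of 42.1 without and 38.6 with cycloleucine. The 3 IkappaB genes that hold dimers in the cytoplasm, Nfkbia, Nfkbib and Nfkbie, summed to 55.5 and 56.6, so the sum of their RPKM over that of the subunits was 1.32 and 1.47. These are sums of RNA per exon length and not amounts of protein.

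Among the subunits, Rela and Nfkb1 form the classical dimer. Rela, which carries the transactivation domain of that dimer, is at chr19:5637483-5648130 on the plus strand of mm10 and had 1037 exon reads untreated and 1137 with cycloleucine, an RPKM of 14.1 and 13.1. The ratio of the cycloleucine to the untreated RPKM was 0.931 (0.855 to 1.01), an interval that includes 1. Nfkb1 encodes a precursor whose N-terminal part binds DNA and lacks a transactivation domain. It lies at chr3:135584655-135691547 on the minus strand and had 1100 and 1381 exon reads, an RPKM of 8.48 and 9.04 and a ratio of 1.07 (0.984 to 1.15). Nfkb1 was the 1 subunit with a higher RPKM under cycloleucine, though its interval too includes 1. Rela kept a like share of the summed subunit RPKM, 33.5% and 34.0%, while that of Nfkb1 was 20.2% and 23.5%.

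Nfkb2 and Relb, the partners of the noncanonical arm, were the 2 subunits lower in the cycloleucine library by more than counting error. Nfkb2 encodes a precursor that holds RelB in the cytoplasm until it is cut. It is at chr19:46304737-46312090, plus strand, and had 1113 and 1119 exon reads, an RPKM of 12.5 and 10.6. Reads were nearly equal while the cycloleucine library was deeper, and the RPKM was thus 1.17-fold lower (1.08 to 1.27). Relb, at chr7:19606217-19629438 on the minus strand, had 562 and 535 exon reads, an RPKM of 5.33 and 4.31, and was 1.24-fold lower (1.10 to 1.40), the lowest log2 fold change of the subunits at -0.30. Features with 0.5 to 2 times its reads had a middle 95% of -0.44 to 0.51, and for Nfkb2, at -0.23, that range was -0.35 to 0.41. Both genes therefore lay within the range of features of like depth.

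Rel encodes c-Rel, the subunit most restricted to lymphoid cells. It was the scarcest subunit, with 128 and 130 exon reads and an RPKM of 1.69 and 1.45, at chr11:23741514-23770970 on the minus strand. Its ratio of 0.862 (0.670 to 1.11) includes 1, and the interval allows for a gene 1.49-fold lower as well as one slightly higher. Rel made up 4.01% of the summed subunit RPKM untreated and 3.77% with cycloleucine.

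Nfkbia, which encodes IkappaB-alpha, the inhibitor resynthesised fastest after activation, was the best measured of the 10. It is at chr12:55489411-55492647 on the minus strand and had 1667 exon reads untreated and 1919 with cycloleucine. The RPKM was 39.0 and 38.1, a ratio of 0.977 (0.915 to 1.04). The interval spans from 1.09-fold lower to 1.04-fold higher.

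Nfkbib encodes IkappaB-beta, which is resynthesised more slowly than IkappaB-alpha. With 906 and 1220 exon reads and an RPKM of 15.4 and 17.6, it was the 1 gene of the 10 whose exon reads were higher by more than counting error, with a ratio of 1.14 (1.05 to 1.25). Its log2 fold change of 0.19 lay inside the middle 95% of features of like depth, -0.35 to 0.40. Nfkbie, for IkappaB-epsilon, at chr17:45555716-45563169 on the plus strand, had 73 and 74 exon reads, an RPKM of 1.11 and 0.956, and a ratio of 0.861 (0.614 to 1.21) that includes 1. Of the summed RPKM of the 3 IkappaB genes, Nfkbia gave 70.2% untreated and 67.2% with cycloleucine, Nfkbib 27.8% and 31.1%, and Nfkbie 2.00% and 1.69%.

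The remaining 2 genes are sensitive reporters of a fresh NF-kappaB response in many cells. Nfkbiz encodes an atypical nuclear IkappaB that works with subunits on chromatin and can activate as well as repress. It had 116 and 173 exon reads, an RPKM of 0.852 and 1.08 and a ratio of 1.27 (0.995 to 1.62), the highest of the 10, at chr16:55811375-55838899 on the minus strand. Tnfaip3 encodes a ubiquitin-editing enzyme that shuts off signalling upstream of IkappaB kinase. Its 92 and 83 exon reads gave an RPKM of 0.469 and 0.359 and a ratio of 0.766 (0.562 to 1.04), the lowest of the 10, at chr10:19000910-19015657 on the minus strand. They stood at opposite ends of the 10, and the interval of each just includes 1.

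The 5 genes with a kappaB match in a promoter window, Nfkb2, Rel, Nfkbia, Nfkbie and Tnfaip3, had ratios below 1, as 4723 of the 9613 kept features had log2 fold changes below 0, and the interval of 1 of the 5, Nfkb2, lay wholly below 1. Nfkbia was close to no change, at -0.033 (log2) with all reads and 0.0015 with uniquely placed reads. With junction reads Rel was at 1.14 and Nfkbie at 1.24. These rest on 14 and 37 reads and on 4 and 12 reads, so no side of 1 is read from them. Of the 2 genes with a window and no match, Rela had a ratio of 0.931 and Nfkbib one of 1.14. Nfkb1, Relb and Nfkbiz had no window in the RefSeq promoter set used here. This is a description of 7 genes chosen by name, with no test.

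**Figure D2:**
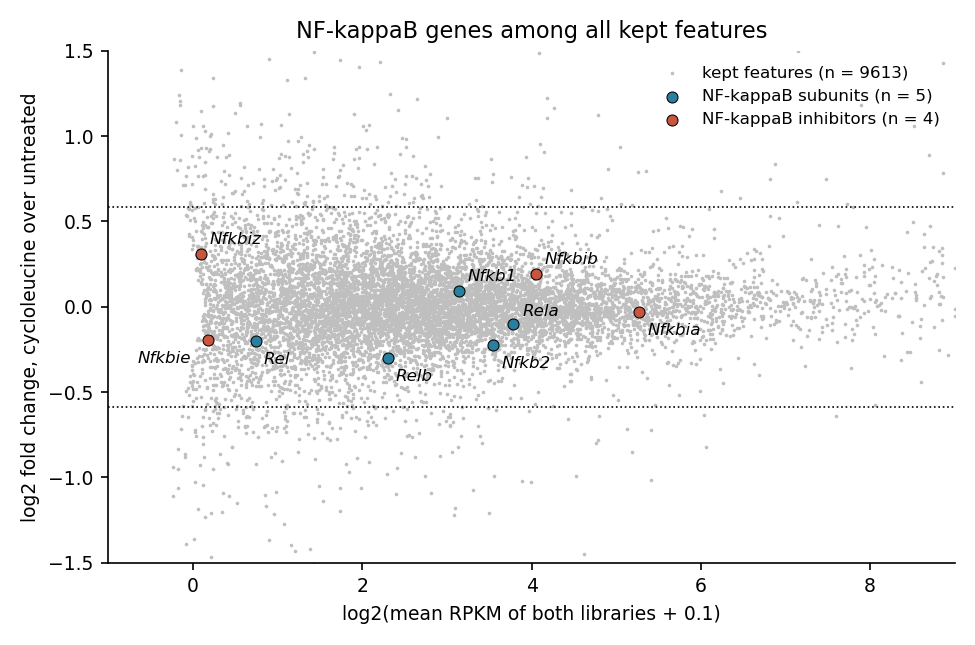
Log2 fold change of RPKM (cycloleucine over untreated) against the log2 of the mean RPKM for the 9613 kept features (grey), with the 5 subunits in blue and the 4 inhibitors above the filter in red; dotted lines mark 1.5-fold, and 134 features lie outside the axes. All 9 genes lie between the dotted lines, from -0.30 for Relb to 0.31 for Nfkbiz.

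Intron reads, which unspliced RNA can give, and reads that span 2 joined exons, hence from spliced RNA, were set beside the exon reads. The origin of the intron reads was not tested. For Nfkb1 all 3 kinds of read differed little, with 364 and 454 intron reads, a ratio of 1.06 scaled by gene reads (0.921 to 1.22), and 416 and 485 junction reads, a ratio of 0.991 scaled by all junction reads (0.867 to 1.13). The intron share of its gene reads was 24.9% (exact binomial interval 22.7% to 27.2%) and 24.7% (22.8% to 26.8%). Each of the 3 ratios of Nfkb1 has an interval that includes 1. The gene model Gm43430 overlaps Nfkb1 on the same strand.

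In Nfkbib the kinds of read lay furthest apart. Its intron reads were 44 untreated and 21 with cycloleucine, 2.47-fold lower relative to gene reads (1.44 to 4.37), while exon reads were higher. Its junction reads were 213 and 325, a ratio of 1.30 (1.09 to 1.55), so spliced and exon reads stood on one side and intron reads on the other. Junction reads are also exon reads, so the junction and exon ratios are not independent. The log2 change of the junction reads, 0.37, was inside the range of genes of like depth, -0.51 to 0.52. Introns gave 4.63% (3.39% to 6.17%) of its gene reads untreated and 1.69% (1.05% to 2.58%) with cycloleucine. With 0.5 added to each count, the intron to exon ratio of Nfkbib had a log2 change of -1.48 (-2.23 to -0.73).

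This rests on 65 intron reads, fewer than the 100 (with 200 exon reads) that were set as the minimum for the comparison with other genes. Of the 7 NF-kappaB genes that met the minimum, 0 differed by 2-fold in this ratio, where 0.97% of 6803 genes did, 0.588% higher and 0.382% lower, and the middle 95% ran from -0.66 to 0.72. A minimum of 50 intron reads, chosen after the values of Nfkbib were seen, admits it as the 8th gene and the 1 past 2-fold, where 1.97% of 7836 genes were, 1.19% higher and 0.778% lower. Among the 1621 genes of that larger set with 0.5 to 2 times its intron reads, the middle 95% lay between -1.02 and 1.16.

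Nfkbib, at chr7:28758251-28767512 on the minus strand, shares 778 bases with Sirt2 and 718 with Ccer2, both on the plus strand, and use of strand in counting is unknown here. Sirt2, which encodes a deacetylase, had 547 and 677 exon reads and 106 and 128 intron reads, an RPKM of 5.65 and 5.94. Its reads were thus not lower in the cycloleucine library, and its part in the Nfkbib intron reads was not tested. From uniquely placed reads alone, 40 and 14 in introns, the ratio change of Nfkbib was -1.91.

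In Rela and Nfkbia the intron reads were higher and the exon reads were not. Rela had 57 and 98 intron reads, a ratio of 1.46 (1.04 to 2.06), and Nfkbia 65 and 108, a ratio of 1.41 (1.03 to 1.95). The ratio of intron to exon reads had a log2 change of 0.64 (0.16 to 1.13) in Rela and of 0.53 (0.07 to 0.98) in Nfkbia. Genes with 0.5 to 2 times their intron reads had a middle 95% of -0.77 to 0.89 and of -0.73 to 0.84, so both values lay inside the usual range. Intron shares were small in both genes, 5.21% and 7.94% in Rela and 3.75% and 5.33% in Nfkbia. No other gene than these 3 had an intron ratio whose interval lay off 1, and Relb, with 94 and 88 intron reads, was lower in introns (0.795, 0.587 to 1.07) about as much as in exons. Nfkbiz kept the highest intron share of the 10, 43.1% and 39.9%, from 88 and 115 intron reads.

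**Figure D3:**
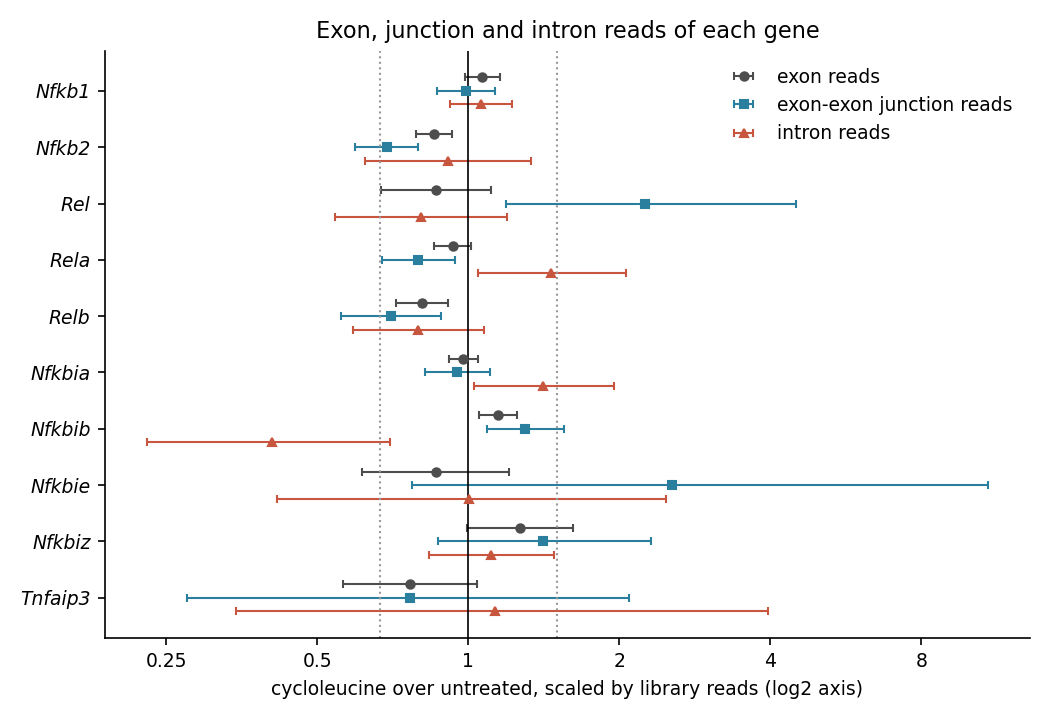
Ratio of the cycloleucine to the untreated library (log2 axis) for exon reads (grey circles), exon-exon junction reads (blue squares) and intron reads (red triangles) of each gene, with exact counting intervals as bars and dotted lines at 1.5-fold. In Nfkbib the intron ratio (0.405) lies left of 1 and the others right of it. The junction ratios of Rel (2.25, from 14 and 37 reads) and Nfkbie (2.55, from 4 and 12) lie right of their exon and intron ratios.

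**Figure D4:**
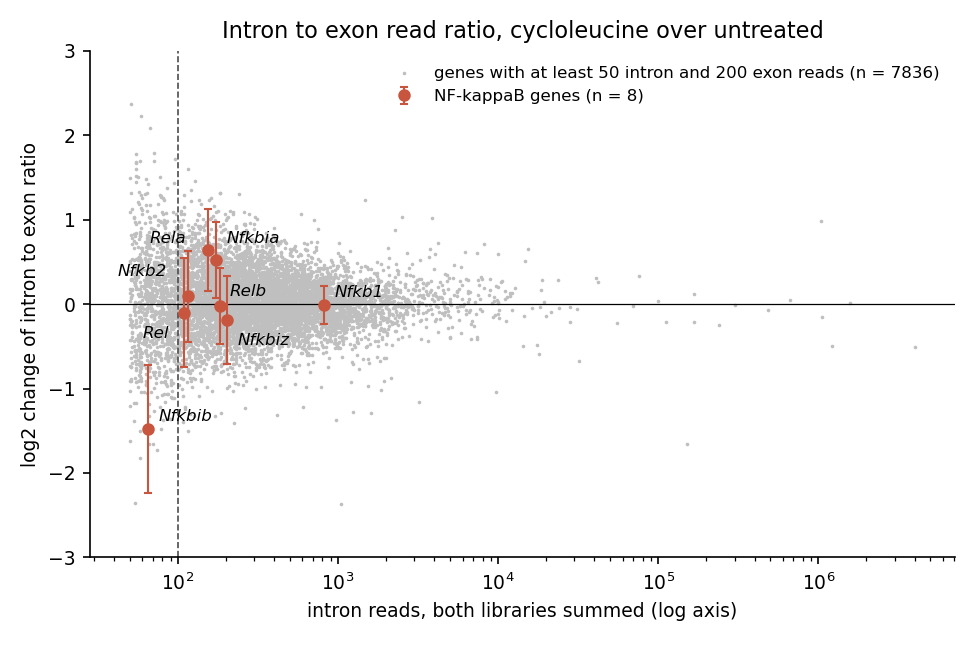
Log2 change of the intron to exon read ratio against intron reads summed over both libraries (log axis) for 7836 genes (grey) and the 8 NF-kappaB genes among them (red, with normal-approximation counting intervals). The dashed line marks the minimum of 100 intron reads; Nfkbib at -1.48 lies left of it, and the other 7 lie right of it.

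In Nfkb2 and Relb the junction ratio was below the exon ratio. Nfkb2 had 422 junction reads untreated and 341 with cycloleucine, 1.46-fold lower (1.26 to 1.68), from 1112 and 1116 uniquely placed exon reads. It had 37.9 junction reads per 100 such exon reads without and 30.6 with cycloleucine, while over all features these were 23.9 and 23.5. The log2 change of its junction reads, -0.54, lay outside the middle 95% of the 2576 genes with 0.5 to 2 times its junction reads, -0.43 to 0.46. Many genes and kinds of read were set beside such ranges, so a value outside its range is not by itself read as a result. Relb, with 171 and 141 junction reads, was 1.43-fold lower (1.14 to 1.80), and Rela, with 295 and 276, 1.26-fold lower (1.06 to 1.49). Both were inside the range of genes of like depth, at -0.51 in -0.59 to 0.63 and at -0.33 in -0.49 to 0.51. Nfkb2 overlaps 2 genes of the other strand, the noncoding AC114539.1 over 1292 bases and Psd over 299. Psd was low, with an RPKM of 0.567 and 0.794.

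Rel went the other way in junction reads, with 14 untreated and 37 with cycloleucine. The ratio was 2.25 (1.19 to 4.50), from 127 uniquely placed exon reads in each library, which makes 11.0 and 29.1 junction reads per 100 exon reads. Of the 8 NF-kappaB genes with 50 or more junction reads summed, Rel was the 1 past 1.5-fold, where 9.48% of 7586 genes were, 5.08% higher and 4.4% lower. With 51 junction reads in all, Rel met that minimum, which was chosen after the data were seen, only through the library where it is high, so nothing is read from this count. The middle 95% of 1124 genes of like depth was -1.09 to 1.18, and Rel at 1.14 fell inside it. Nfkbie had 4 and 12 junction reads, a ratio of 2.55 with an interval of 0.773 to 10.8, and Tnfaip3 10 and 9, so nothing can be read from either at this depth. Nfkbia, with 346 and 387, and Nfkbiz, with 29 and 48, had ratios of 0.951 (0.820 to 1.10) and 1.41 (0.869 to 2.31) that include 1.

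The rest of the pathway was described from 6 lists with 122 genes in the table, 67 of them above the filter, and 0 of the 67 were past 1.5-fold. Their log2 fold changes ran from -0.44 to 0.55 with a median of 0.04, and 38 lay above and 29 below 0. Ikbkb passed the filter only through the cycloleucine library, and Btrc and Pdlim2 only through the untreated library. The counts above and below 0 are therefore not read as a result, here or in the lists below. The share of all kept features past 1.5-fold was 5.49%, and 4.03% among the 9081 with an annotated transcript, 2.16% higher and 1.87% lower.

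Kinases and adaptors of the canonical arm had 22 of 23 genes above the filter, 15 higher and 7 lower, with a median of 0.06. Of the 3 parts of IkappaB kinase itself, Chuk had a ratio of 1.12 (1.03 to 1.22), above 1 by more than counting error. The ratios of Ikbkb, 1.04 (0.919 to 1.17), and Ikbkg, 1.01 (0.920 to 1.10), have intervals that include 1. Ikbkb, at an RPKM of 0.987 and 1.02, passed the filter only through the cycloleucine library. Traf6, a ubiquitin ligase downstream of Toll-like receptors and CD40, was the highest of the list at 0.37, with an RPKM of 3.98 and 5.17. Birc2, a ubiquitin ligase of the same path, was at 0.26 (3.53 and 4.24). The lowest was Tradd, an adaptor of the tumour necrosis factor receptor, at -0.40 (3.44 and 2.58).

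In the noncanonical arm, 5 of 8 genes were above the filter, 2 higher and 3 lower, with a median of -0.01. Otud7b, a deubiquitinase that stabilises TRAF3 and so restrains this arm, was the highest at 0.51, with 622 and 1058 reads and a ratio of 1.44 (1.31 to 1.60). Traf3, which keeps the arm shut in resting cells, was at -0.06 (RPKM 4.46 and 4.28), Tank at -0.20 (1.58 and 1.37) and Tbk1 at 0.14 (10.7 and 11.8).

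Other inhibitors and regulators had 21 of 23 genes above the filter, 9 higher and 12 lower, with a median of -0.01. Nkrf, a repressor that binds beside kappaB sites, was the highest at 0.55, with 214 and 373 reads and a ratio of 1.48 (1.25 to 1.76). Btrc, the F-box protein that recognises phosphorylated IkappaB, was the lowest at -0.44, with 237 and 200 reads and a ratio of 0.716 (0.591 to 0.869). Its RPKM was 1.38 and 0.990, so it passed the filter only through the untreated library. The same holds for Pdlim2, at an RPKM of 1.13 and 0.984. Nkiras1 was at -0.34, and Cyld, a deubiquitinase that counters IkappaB kinase activation, at -0.30 with a ratio of 0.807 (0.713 to 0.914).

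Receptors had 6 of 18 genes above the filter, 5 higher and 1 lower, with a median of 0.15. Tlr2, a Toll-like receptor, was at 0.42 (RPKM 2.08 and 2.82) and Tnfrsf17, the BCMA receptor of plasma cells, at 0.33 (14.7 and 18.5). The related receptors Tnfrsf13c at 0.17 (7.04 and 7.91) and Tnfrsf13b at 0.14 (11.9 and 13.2) were closer to 0. Of the 10 ligand genes 0 were above the filter, with 11 reads untreated and 22 with cycloleucine over the list.

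Target genes had 13 of 40 above the filter, 7 higher and 6 lower, with a median of 0.0074. With uniquely placed reads Fas also passed the filter, and 10 were higher and 4 lower. Gadd45b, a stress-induced growth regulator, was at 0.33 (RPKM 17.7 and 22.3), Irf1, a transcription factor of interferon responses, at 0.29 (7.17 and 8.80) and Il10, a cytokine, at 0.17 (3.38 and 3.80). Stat5a was the lowest at -0.25 (1.66 and 1.38). Of the abundant targets, Irf4 was at 0.01, Fth1 at 0.03, Cd44 at -0.01 and Bcl2l1 at -0.04. Ccnd2, with an RPKM of 51.5 and 46.6, was at -0.14. Its ratio of 0.905 (0.878 to 0.933) was below 1 by more than counting error. Icam1, with 3 reads and 1 read, was near the floor. Under the filter, Bcl2, which encodes an inhibitor of cell death, had 103 and 61 reads, an RPKM of 0.415 and 0.208 and a ratio of 0.503 (0.360 to 0.697).

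**Figure D5:**
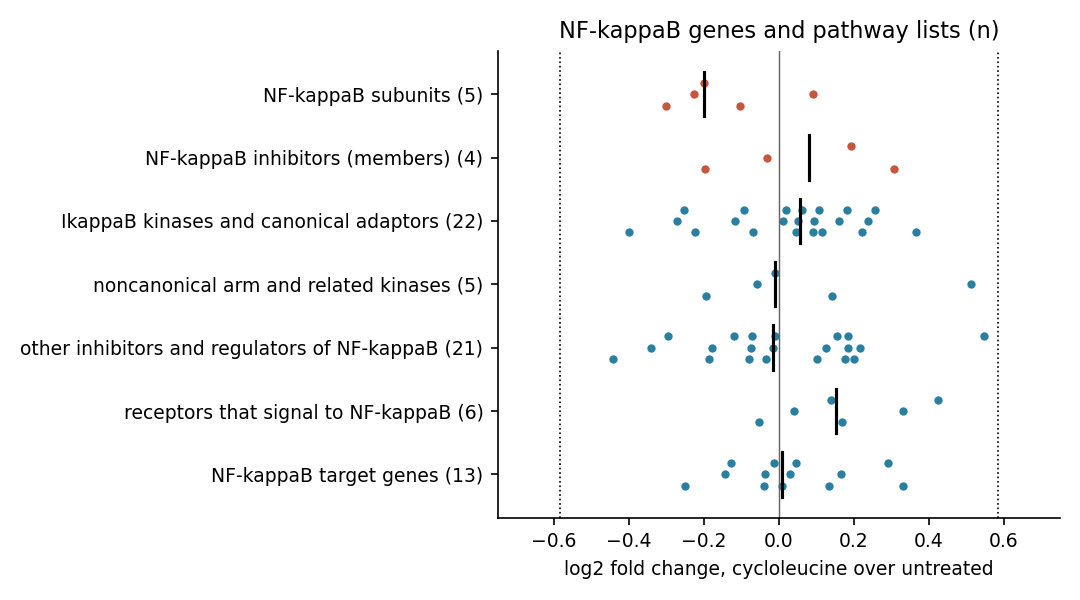
Log2 fold change (cycloleucine over untreated) of each gene above the filter, for the subunits and inhibitors followed here (red) and the 5 pathway lists with genes above the filter (blue), with medians as black bars and dotted lines at 1.5-fold. Every point lies between the dotted lines, the outermost being Nkrf at 0.55 and Btrc at -0.44, the latter above the filter only in the untreated library.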

How the data were processed

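RNA was measured by sequencing of rRNA-depleted total RNA from 2 libraries, 1 untreated and 1 given cycloleucine, and the series' design text speaks of a triplicated experiment. Per the file headers, the authors deposited counts of reads over genes, exons, introns and junctions, in total and uniquely placed. Deposited RPKM values equalled exon reads (gene reads for features without an annotated transcript) over exon length and the library's gene reads in 43346 of 43346 features of each library, within a share of 0.0001. Coordinates are on mm10 (build per the submitters' processing notes). The aligner, counter, annotation release and strand use were not given in the sources used here. Its table had 0 columns of other libraries.

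File starts count from 0, and 1 was added to print them. Of 39257 features matched to GENCODE M21 by symbol and chromosome, 32577 then had the same start. Strand and overlaps came from GENCODE M21, and promoters from RefSeq, for 7 of the 10 genes. Ratios are plain RPKM ratios. Their intervals are 95% Clopper-Pearson intervals of the share of reads from cycloleucine-treated cells, scaled to library totals, and those of the ratio change a normal approximation. All cover counting error only and not variation between cultures, and PCR reads that lack molecular identifiers cannot count as independent molecules. A count of 0 allows 3 counts, or 0.111 and 0.0939 RPKM for 1 kb. Methods were tested on simulated data. Python 3.11.15, pandas 2.3.3 and SciPy 1.17.1 were used.

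The members and lists were chosen with earlier results of these data known. All 10 members were named, and of each list up to 4 genes above the filter with the largest change, of which 1 is not reported here. Chuk, Ikbkb, Ikbkg, Pdlim2, Irf4, Fth1, Cd44, Bcl2l1, Ccnd2, Bcl2 and Icam1 were named in addition, after their values were seen. The minimum of 50 intron or junction reads, the 2-fold rule for the intron to exon ratio, the ranges of like depth and the promoter search were also chosen after seeing the data. Alternatives tried were pseudocount, unique reads, scaling, filters, size rule and junction reads.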

Additional observations from a re-analysis of the deposited data

How the results depend on the processing

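No paired analysis was possible because a group holds 1 library, so no value has a replicate check. Under 5 alternatives for each of the 10 genes, 44 of 50 log2 fold changes stayed within their counting interval. The other 6 all came from junction reads, for Nfkb2 (-0.54), Rel (1.14), Rela (-0.33), Relb (-0.51), Nfkbib (0.37) and Nfkbie (1.24). By junction reads 2 genes, Rel and Nfkbie, were at least 1.5-fold higher, where 5.08% of 7586 genes with 50 or more such reads were. Nfkbie, at 4 and 12 junction reads, was under that minimum, and Rel met it only through the cycloleucine library. Nothing is read from this count. The median of the genes above the filter, -0.10, ran from -0.15 with no filter to -0.01 with junction reads. All 20 alternative values of the intron to exon ratio lay within their counting intervals. Of the background, 70 features were higher and 64 lower at 2-fold in place of 291 and 237 at 1.5-fold, 146 were lower with unique reads, 2755 and 2581 were higher and lower with no filter, and 150 and 108 with a pseudocount of 1. With a minimum of 50 intron reads, an alternative added after seeing the data, 93 genes had a 2-fold higher and 61 a 2-fold lower ratio, in place of 40 and 26, as more genes enter. Nfkbib (65 intron reads) is counted among the genes compared under that minimum only. With unique reads 1 gene among other regulators (Nkrf, 0.59) and 1 target gene (Fas, 0.69) were past 1.5-fold. With all reads Fas lay under the filter, at 22 and 43 reads and an RPKM of 0.450 and 0.747. Its ratio of 1.66 (0.971 to 2.91) includes 1, and its level was higher with cycloleucine, so nothing is read from its call. By unique reads the counts above and below 0 went from 7 and 6 to 10 and 4 for targets, with Fas added. For other regulators they went from 9 and 12 to 11 and 10 (median -0.01 to 0.01). For the noncanonical arm they went from 2 and 3 to 3 and 2 (median -0.01 to 0.03). The cause was not tested except where fewer or more features enter. Depth limits Nfkbie, Nfkbiz, Tnfaip3 and Rel most.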

Other observations

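Several pathway genes lay under the filter, and the ones given here were chosen after their values were seen. Map3k14, the kinase that starts the noncanonical arm, had 39 exon reads untreated and 73 with cycloleucine, a ratio of 1.59 (counting interval 1.06 to 2.41). Its level was low in both, with an RPKM of 0.219 and 0.349. Cd40, a receptor of B cells that feeds both arms, had 41 and 23 reads, a ratio of 0.476 (0.273 to 0.813) at an RPKM of 0.444 and 0.211. Tnfrsf1a, the main receptor for tumour necrosis factor, had 27 and 17 reads and a ratio of 0.535 whose interval, 0.273 to 1.02, includes 1. Traf1, an adaptor, had 16 and 18 reads, and its interval of 0.460 to 2.00 is too wide to read a direction from. Of the ligands, Ltb had 1 and 11 reads, a ratio of 9.34 with an interval of 1.36 to 402, and Tnf had 2 reads and 1 read.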
